A study of Mus musculus with 4 samples.

Results

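The genes described here are the glutathione and antioxidant enzymes of the mouse, chosen by symbol from the array's own gene names: the glutathione S-transferases, glutathione peroxidases, peroxiredoxins, thioredoxin reductases and superoxide dismutases, together with Gclc, Gclm, Gss, Gsr, Cat, Hmox1, Nqo1, Srxn1, Nfe2l2 and Keap1. They came to 79 probes of 52 genes, out of 41174 probes of 27389 genes. Their messenger RNA was measured in neurospheres, floating cultures of neural stem cells grown without serum and with EGF, from Dll1-3 mutant mice, from Dll1-5 mutant mice and from wild-type mice. All came from 129/Sv mice crossed with C57BL/6, and Dll1 encodes a ligand of the Notch receptors. Each mutant line was set against wild-type RNA on 2 arrays of 2 colours with the dyes swapped, and the RNA was pooled from 3 preparations. A line therefore counted as 1 replicate, so p-values over the 2 lines measure only the spread between these samples, which may be technical. The labels do not say whether both lines were set against the same wild-type RNA, in which case the 2 ratios, the p-values and the counts of shared signs would not be independent of each other. They also do not say whether or how the alleles of the 2 lines differ.

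Glutathione is a tripeptide thiol made in sequence by glutamate-cysteine ligase (Gclc and Gclm) and glutathione synthetase (Gss), and it is returned to its reduced form by glutathione reductase (Gsr). Peroxidases and transferases spend it on peroxides and on reactive electrophiles, while superoxide dismutases, catalase and the thioredoxin-linked peroxiredoxins remove oxidants without it or beside it. Many of these genes are induced by the transcription factor NRF2, encoded by Nfe2l2, which the adaptor encoded by Keap1 holds in check and which binds the antioxidant response element. In brain tissue glutathione enzymes are commonly more abundant in astrocytes than in neurons.

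The core of that element, TGACNNNGC on either strand, was searched in promoter windows from 250 bases before to 50 bases after each start site, in sequences credited to RefSeq, build GRCm38.p6. Of the 52 genes, 44 had a window in that table, and 10 of the 44 (22.7%) held the core, against 14% of 27025 genes and 12.4% of 32851 windows. The 10 sites are shown because they are the matches that the values below are later set beside. Each is read 5′ to 3′ in the direction of the core, which is in capitals, with 10 bases on each side. Counted from the start site, the cores begin between position -240 (Nfe2l2) and position 28 (Srxn1).
Gclm site, chr3:122245413-122245441, minus strand: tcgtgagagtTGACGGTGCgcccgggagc
Gsta3 site, chr1:21240454-21240482, plus strand: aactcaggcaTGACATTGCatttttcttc
Gstm5 site, chr3:107895802-107895830, plus strand: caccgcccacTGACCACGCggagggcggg
Gstm7 site, chr3:107931725-107931753, minus strand: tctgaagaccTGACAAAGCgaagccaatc
Mgst1 site, chr6:138140461-138140489, minus strand: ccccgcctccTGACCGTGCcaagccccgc
Nfe2l2 site, chr2:75704885-75704913, minus strand: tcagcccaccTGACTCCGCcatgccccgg
Prdx1 site, chr4:116685456-116685484, minus strand: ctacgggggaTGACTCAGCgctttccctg
Sod1 site, chr16:90220696-90220724, minus strand: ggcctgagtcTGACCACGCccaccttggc
Srxn1 site, chr2:152105542-152105570, minus strand: tgtctcactcTGACCTAGCtgcccactgc
Txnrd1 site, chr10:82859104-82859132, minus strand: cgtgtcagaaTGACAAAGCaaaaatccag
The 3 promoters that follow belong to Cat, Gstm1 and Gsto1, genes at least 2-fold from wild type on all 4 arrays, and none of the 3 windows held the core. Bases from the start site on are in capitals. A match, or its absence from these windows, is a description of the letters only.
Cat promoter, chr2:103485104-103485403, minus strand: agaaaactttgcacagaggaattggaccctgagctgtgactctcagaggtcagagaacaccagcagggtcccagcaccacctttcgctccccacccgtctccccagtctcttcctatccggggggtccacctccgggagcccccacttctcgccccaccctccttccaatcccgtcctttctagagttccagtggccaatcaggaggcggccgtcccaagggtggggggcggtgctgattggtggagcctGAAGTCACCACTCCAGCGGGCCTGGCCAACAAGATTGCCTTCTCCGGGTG
Gstm1 promoter, chr3:108017769-108018068, minus strand: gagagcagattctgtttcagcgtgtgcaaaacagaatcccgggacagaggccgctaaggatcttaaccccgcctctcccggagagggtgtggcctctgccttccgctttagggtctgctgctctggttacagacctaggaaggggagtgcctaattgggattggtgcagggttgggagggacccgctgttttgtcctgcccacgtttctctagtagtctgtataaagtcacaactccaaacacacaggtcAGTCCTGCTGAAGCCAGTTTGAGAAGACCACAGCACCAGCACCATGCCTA
Gsto1 promoter, chr19:47854723-47855022, plus strand: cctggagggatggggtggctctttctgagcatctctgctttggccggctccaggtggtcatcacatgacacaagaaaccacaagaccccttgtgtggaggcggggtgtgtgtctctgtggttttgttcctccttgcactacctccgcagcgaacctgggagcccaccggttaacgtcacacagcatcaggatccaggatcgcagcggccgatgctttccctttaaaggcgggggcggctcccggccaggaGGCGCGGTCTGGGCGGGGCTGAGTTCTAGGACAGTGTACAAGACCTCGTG

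The mutant label held at Dll1 itself, whose log2 ratio of mutant over wild type was -3.31 and -3.22 in Dll1-3 and -1.65 and -1.64 in Dll1-5. In each channel 80.0% to 82.1% of probes stood well above background. Of the members, 50 genes passed the filter on dim probes, which asked that either RNA exceed background in both arrays of some line, and Gpx3 and Gsta2 did not. A spot marked as an outlier removed 1 array for Gpx1 (Dll1-5 replicate 1) and for Prdx3 and Txnrd1 (Dll1-3 replicate 2), so 47 genes had values on all 4 arrays. Beyond 27 members named by rule, others are named after their values were seen. Ratios below are on the log2 scale, mutant over wild type, and signals are normalised intensities that include an offset of 50, which draws the ratios of dim genes toward 0. The stem and progenitor markers Nes, Sox2 and Vim were well above background in all channels, and all 3 had ratios below 0 on each array by their brightest probes. Other markers of these cells did not all go that way, with Prom1 higher on each array and Fabp7 higher on both Dll1-5 arrays.

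Catalase (Cat), the peroxiredoxin Prdx6 and the mu-class transferases Gstm1 and Gstm3 had the lowest ratios over both mutant lines, and the transferases Gsto1 and Gsta4 and the quinone reductase Nqo1 had the highest. Members of one role often lay on opposite sides of 0. Over all 50 tested members the median log2 ratio was 0.00 in Dll1-3, -0.02 in Dll1-5 and 0.02 over both lines, beside 0.00, 0.00 and 0.01 for all genes. Their ratios were wider apart than those of all genes, with a median size of 0.38 in Dll1-3 and 0.32 in Dll1-5, beside 0.22 and 0.18. Comparisons with all genes, here and below, were not matched for signal, and the offset draws the ratios of dim genes toward 0.

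By limma with Benjamini-Hochberg adjustment over 23106 genes, 0 of 50 members passed an adjusted p of 0.05, as did 0% of all genes. The smallest limma adjusted p was 0.0755 among members and also among all genes, a value shared by genes of differing unadjusted p. At an unadjusted p under 0.05 there were 21 of 50 members (42%), 9 higher and 12 lower, where 27.5% of all genes met the same bar (12% higher and 15.5% lower). At least 2-fold on both arrays of Dll1-3 were 9 of 48 members (18.8%), beside 10.6% of all genes, with 3 higher and 6 lower (4.46% and 6.1% of all genes). For Dll1-5 the count was 8 of 49 members (16.3%), beside 6.7% of all genes, with 4 higher and 4 lower (3.01% and 3.69% of all genes). On all 4 arrays it was 4 of 47 members (8.51%), beside 4.44% of all genes. Gsto1 was the 1 higher member and Cat, Gstm1 and Prdx6 were the 3 lower ones, beside 1.69% and 2.75% of all genes. The sign was the same on all 4 arrays for 29 of 47 members, which is 61.7%, beside 50.1% of all genes, with 13 higher and 16 lower (24.1% and 26% of all genes). With median centring in place of loess the 2-fold counts were 1 in Dll1-3, 1 in Dll1-5 and 0 on all 4 arrays. Under that setting the swapped arrays of a line differed by a median of 1.48 (Dll1-3) and 1.45 (Dll1-5) among members, where they differed by 0.09 in both lines after loess.

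**Figure D1:**
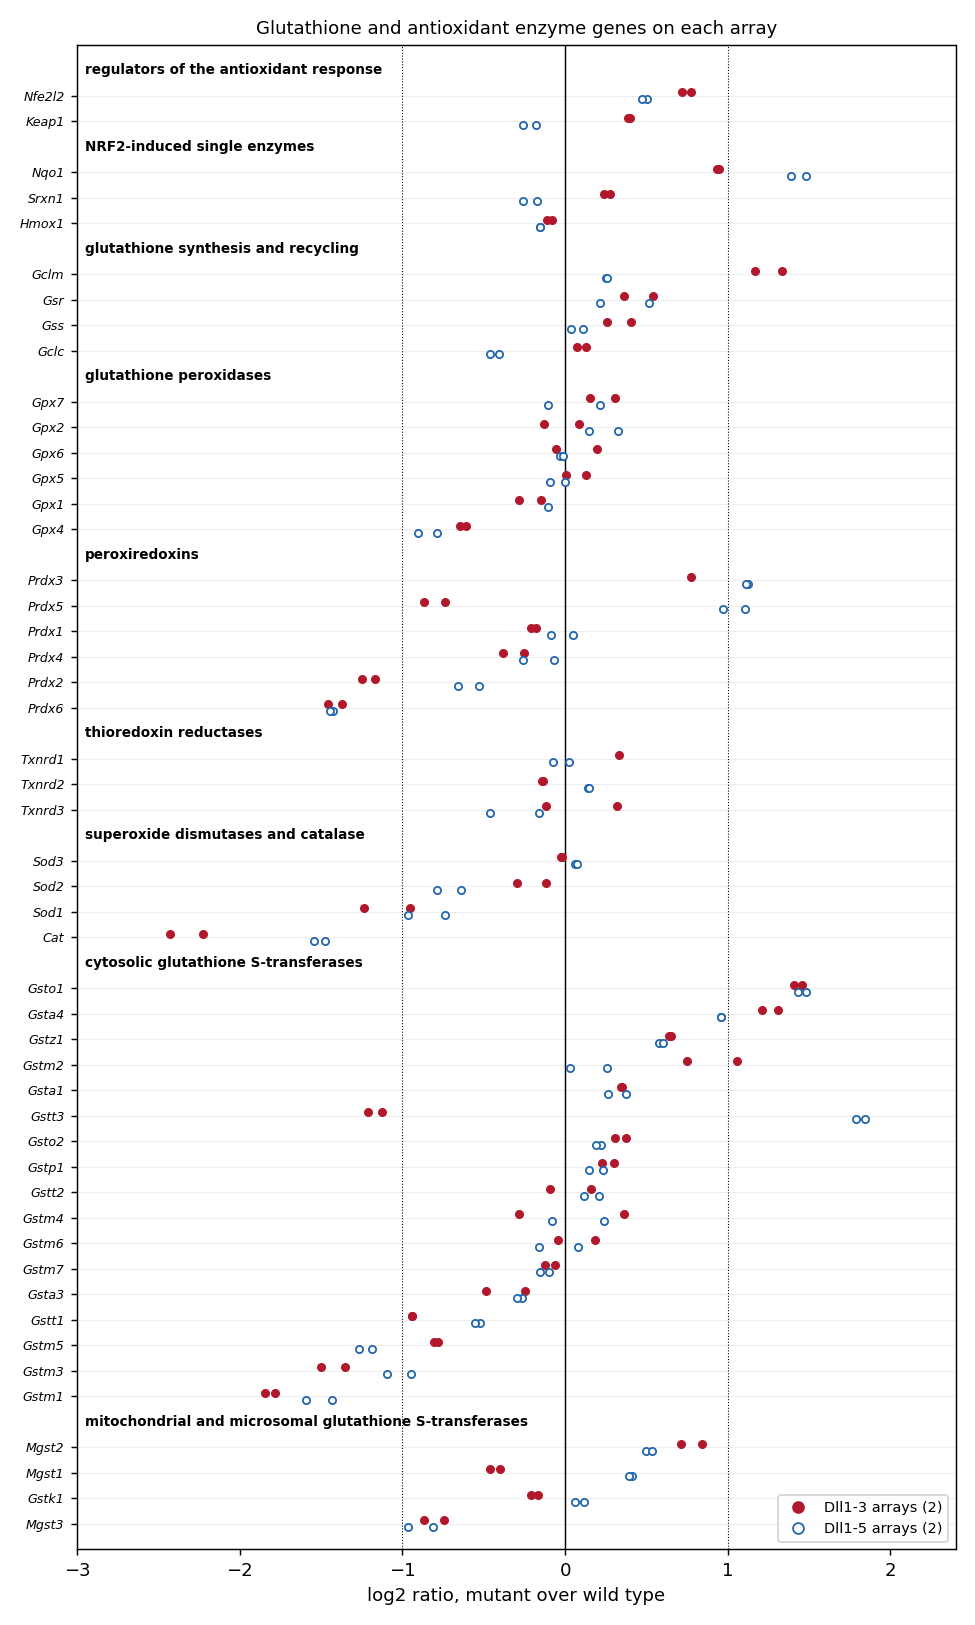
Log2 ratio of mutant over wild type (horizontal axis) for 49 of the 50 tested members, grouped by role, with filled red points for the 2 Dll1-3 arrays and open blue points for the 2 Dll1-5 arrays; dotted lines mark 2-fold. Cat lies farthest to the left, Gstt3 has its lines on opposite sides of 0, and most peroxidases and thioredoxin reductases lie near 0.

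Catalase, which splits hydrogen peroxide into water and oxygen, had the lowest mean ratio of all members. Its signal was 724 and 786 in Dll1-3 mutant RNA, against 3900.5 and 3679 in the wild-type RNA of those arrays, and 1331 and 1364 in Dll1-5 mutant RNA, against 3875 and 3795 in wild-type RNA. All mutant signals were below all wild-type signals, and those of Dll1-3 were the lowest. The ratios were -2.43 and -2.23 in Dll1-3 and -1.54 and -1.48 in Dll1-5, which is 5.02-fold lower in Dll1-3 and 2.85-fold lower in Dll1-5, and the mean over lines was -1.92 ± 0.58 (SD, n = 2 lines; limma adjusted p = 0.0858). Its single probe is placed at chr2:103159258-103159317 by the array files, which name no build.

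Of the superoxide dismutases, Sod1, the cytosolic copper and zinc enzyme, was lower on every array, with ratios of -0.96 and -1.24 in Dll1-3 and -0.74 and -0.96 in Dll1-5 (mean -0.97 ± 0.17, SD, n = 2 lines; limma adjusted p = 0.0788). It was close to 2-fold lower in both lines but crossed it on 1 array only, and its 2 other probes gave means of -0.39 and -0.24. Sod2, the mitochondrial manganese enzyme, had ratios of -0.12 and -0.30 in Dll1-3 and -0.64 and -0.79 in Dll1-5. The Dll1-5 arrays were the lower ones for Sod2, the reverse of the order seen for Cat. Sod3, the secreted form, was well above background in 3 of 4 mutant channels and 2 of 4 wild-type channels, and its ratios lay between -0.03 and 0.08.

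The 7 peroxiredoxin genes, thiol peroxidases that thioredoxin or glutathione recharges, split in direction. Prdx6, the form that works with glutathione, had signals of 5419 and 4870.1 in Dll1-3 mutant RNA, against 14030.5 and 13379.8 in the wild-type RNA of those arrays, and 5231 and 4942 in Dll1-5 mutant RNA, against 14082 and 13450.0 in wild-type RNA. Its mutant signals were alike in the 2 lines and all lay under the wild-type ones. The Prdx6 ratios were -1.37 and -1.46 in Dll1-3 and -1.43 and -1.44 in Dll1-5 (mean -1.43 ± 0.02, SD, n = 2 lines; limma adjusted p = 0.0755), a mean 2.69-fold lower level. The 3 other Prdx6 probes were lower too, by less, with means between -0.95 and -0.15.

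Prdx2, an abundant cytosolic form, had ratios of -1.25 and -1.17 in Dll1-3 and -0.66 and -0.53 in Dll1-5 (mean -0.90 ± 0.44, SD, n = 2 lines; limma adjusted p = 0.136), and its 2 other probes were lower as well, at -0.65 and -0.59. It was 2-fold lower in Dll1-3 only. Prdx3, the mitochondrial form, was the one peroxiredoxin higher in both lines, with 0.77 on the single Dll1-3 array that measured it and 1.12 and 1.11 on the Dll1-5 arrays (mean 0.94 ± 0.24, SD, n = 2 lines; limma adjusted p = 0.0864). Prdx1 and Prdx4 lay between -0.38 and 0.05 on every array. Their other probes did not follow them: that of Prdx1 had a mean of -0.96 and that of Prdx4 a mean of 0.18, opposite in sign to its brighter probe.

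The cytosolic glutathione S-transferases, which join glutathione to electrophiles, included the highest mean ratio of all members. Of 18 genes 17 were tested, with 7 higher and 6 lower on all 4 arrays (24.1% and 26% of all genes). Gstm1, a mu-class enzyme, had signals of 11202 and 10696 in Dll1-3 mutant RNA, against 38564 and 38509 in the wild-type RNA of those arrays, and 12510.2 and 11678 in Dll1-5 mutant RNA, against 33758 and 35272 in wild-type RNA. The mutant signals of the 2 lines were alike and far below every wild-type signal. Gstm1 ratios were -1.78 and -1.85 in Dll1-3 and -1.43 and -1.59 in Dll1-5 (mean -1.66 ± 0.21, SD, n = 2 lines; limma adjusted p = 0.0755), a mean 3.17-fold lower level, and its second probe gave -0.99. Its probe lies at chr3:107808005-107808064 in the array files' coordinates.

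Gstm3 had ratios of -1.35 and -1.499 in Dll1-3 and -0.95 and -1.09 in Dll1-5 (mean -1.22 ± 0.29, SD, n = 2 lines; limma adjusted p = 0.0789). Gstm5 had ratios of -0.81 and -0.78 in Dll1-3 and -1.27 and -1.19 in Dll1-5 (mean -1.01 ± 0.31; limma adjusted p = 0.0916). Gstm3 was lower in Dll1-3 than in Dll1-5 and Gstm5 the other way round, with no overlap between the arrays of the lines for either gene. The remaining 4 mu-class genes did not share this: Gstm7 and Gstm6 lay between -0.16 and 0.18 on every array by their brightest probes, Gstm4 changed sign between the swapped arrays of each line, and Gstm2 had 1.05 and 0.75 in Dll1-3 and 0.26 and 0.03 in Dll1-5. Gstm7 was slightly lower on every array by that probe, and its second probe had a mean of -0.28. In RefSeq order along chromosome 3 the genes run Gstm5, Gstm7, Gstm6, Gstm3, Gstm2, Gstm1 and Gstm4, so Gstm5, Gstm3 and Gstm1 did not lie next to each other. The mu-class genes are close in sequence, and cross-hybridisation between them was not tested.

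**Figure D2:**
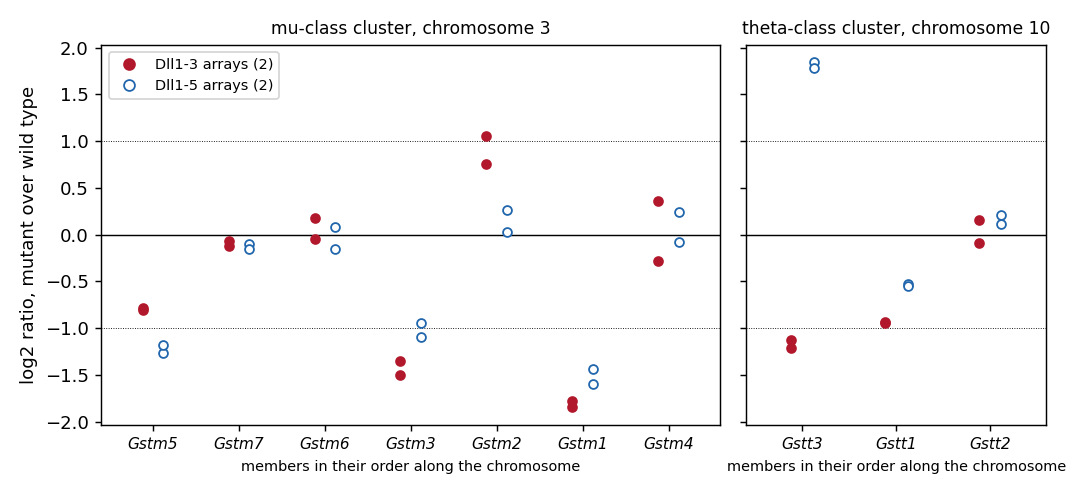
Log2 ratio of mutant over wild type (vertical axis) for the 7 mu-class genes of chromosome 3 and the 3 theta-class genes of chromosome 10, in their order along the chromosome, with filled red points for the 2 Dll1-3 arrays, open blue points for the 2 Dll1-5 arrays and dotted lines at 2-fold. Gstm5, Gstm3 and Gstm1 are low in both lines among neighbours nearer to 0, and Gstt3 has a line mean of -1.17 in Dll1-3 and 1.82 in Dll1-5.

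Gsto1, an omega-class enzyme that reduces dehydroascorbate and mixed disulfides, was the member highest over both lines. Its signals were 2246 and 2281 in Dll1-3 mutant RNA, against 848 and 830.0 in the wild-type RNA of those arrays, and 2317 and 2097 in Dll1-5 mutant RNA, against 858 and 751 in wild-type RNA. Every mutant signal was above every wild-type signal, and the 2 lines gave nearly the same ratio. The ratios were 1.40 and 1.46 in Dll1-3 and 1.43 and 1.48 in Dll1-5 (mean 1.44 ± 0.02, SD, n = 2 lines; limma adjusted p = 0.0755), a mean 2.72-fold higher level. The Gsto1 probe lies at chr19:47415939-47415998 in the array files' coordinates. Gsto2, its homologue, had a mean ratio of 0.27 ± 0.09.

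Gsta4, the alpha-class enzyme that conjugates the lipid aldehyde 4-hydroxynonenal, had ratios of 1.31 and 1.21 in Dll1-3 and 0.96 and 0.96 in Dll1-5 (mean 1.11 ± 0.21, SD, n = 2 lines; limma adjusted p = 0.0782). It was above 2-fold on the Dll1-3 arrays and just under it on the Dll1-5 arrays. Gstz1, which also acts in tyrosine breakdown, was at 0.65 and 0.64 in Dll1-3 and 0.58 and 0.60 in Dll1-5. Gstp1, the pi-class enzyme, had a mean ratio of 0.23 ± 0.05. Gsta1 and Gsta3, of the alpha class, had mean ratios of 0.33 and -0.33, for Gsta3 by its brighter probe. That probe was dim, with signals of 72.6 to 105 that include the offset, and was well above background in 3 of 4 mutant channels. The second Gsta3 probe had a mean of -0.12.

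Among the microsomal transferases, membrane enzymes that also act as peroxidases, Mgst3 had ratios of -0.87 and -0.75 in Dll1-3 and -0.97 and -0.81 in Dll1-5 (mean -0.85 ± 0.06, SD, n = 2 lines; limma adjusted p = 0.0755), with its 2 other probes at -0.61 and -0.03. Mgst2 had ratios of 0.84 and 0.71 in Dll1-3 and 0.50 and 0.53 in Dll1-5 (mean 0.65 ± 0.19; limma adjusted p = 0.102).

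Many marker genes, of neural stem cells and of other cells, were lower in mutant RNA and a few were higher, and the members lay on both sides of 0. Of 8 neural stem or progenitor markers, 5 were lower and 1 higher on all 4 arrays (26% and 24.1% of all genes), and their summed signal was 57320 to 80740 in mutant RNA, against 86310 to 100300 in wild-type RNA. Sox2, a transcription factor of neural stem cells, was at -1.47 and -1.39 in Dll1-3 and -1.54 and -1.44 in Dll1-5, while its second probe had a mean of -0.02. Nes was at -0.28 and -0.31 in Dll1-3 and -1.11 and -1.15 in Dll1-5. Vim was at -0.41 and -0.73 in Dll1-3 and -0.14 and -0.50 in Dll1-5, and its second probe had a mean of 0.18. Prom1 was the higher one, at 0.07 and 0.17 in Dll1-3 and 0.03 and 0.08 in Dll1-5. It was dim, with signals of 80.9 to 101 that include the offset. Fabp7 was at -0.50 and -0.98 in Dll1-3 and 0.14 and 0.31 in Dll1-5. Msi1 was lower in Dll1-3 and mixed in Dll1-5 by its brightest probe, and its second probe had a mean of -0.62. Of 8 astrocyte markers, 7 were lower on all 4 arrays, with a median ratio of -1.21 over lines. The summed astrocyte marker signal was 13610 to 18670 in mutant RNA, against 41650 to 44990 in wild-type RNA. Of 8 neuron markers, 4 were lower and 2 higher on all 4 arrays (26% and 24.1% of all genes). The summed signal of all 8 was 3116 to 6155 in mutant RNA, against 14630 to 15270 in wild-type RNA. Oligodendrocyte lineage markers were lower on all 4 arrays for 4 of 8, with a summed signal of 17070 to 33960 in mutant RNA, against 36530 to 38880 in wild-type RNA. Of 7 endothelial and mural markers, 2 were lower and 1 higher on all 4 arrays (26% and 24.1% of all genes), with a median ratio of 0.03 over lines. Their summed signal, in which bright genes weigh most, was 3375 to 3699 in mutant RNA, against 5677 to 5908 in wild-type RNA. No marker of these 5 lists was at background in all channels. The 7 tested microglia and macrophage markers summed to 602 to 647 in mutant RNA, against 604 to 658 in wild-type RNA, and P2ry12 was not well above background in any mutant channel. The part of any of these cell types in the members' values was not tested, and in bulk RNA fewer cells of a type and less RNA per cell cannot be told apart.

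The brightest Nfe2l2 probe was higher on every array, with signals of 2370.4 and 2218 in Dll1-3 mutant RNA, against 1386 and 1349 in the wild-type RNA of those arrays, and 1969 and 1865 in Dll1-5 mutant RNA, against 1389 and 1345 in wild-type RNA. All mutant signals exceeded all wild-type signals, by more in Dll1-3. The ratios were 0.77 and 0.72 in Dll1-3 and 0.50 and 0.47 in Dll1-5 (mean 0.62 ± 0.18, SD, n = 2 lines; limma adjusted p = 0.106), and the 3 other probes had means between 0.10 and 0.62. The lowest of these was lower on both Dll1-3 arrays, at -0.04 and -0.49, and higher on both Dll1-5 arrays, at 0.67 and 0.25. Keap1 had ratios of 0.40 and 0.38 in Dll1-3 and -0.26 and -0.18 in Dll1-5, so its sign differed between the lines.

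The single enzymes known as NRF2 targets did not follow one pattern. Nqo1, a quinone reductase, had signals of 316 and 299.8 in Dll1-3 mutant RNA, against 164 and 157 in the wild-type RNA of those arrays, and 501 and 423 in Dll1-5 mutant RNA, against 179 and 162 in wild-type RNA. Mutant signals were above wild-type signals on all arrays, and Dll1-5 was the higher line. The ratios were 0.95 and 0.93 in Dll1-3 and 1.48 and 1.39 in Dll1-5 (mean 1.19 ± 0.35, SD, n = 2 lines; limma adjusted p = 0.0882). Hmox1, which degrades haem, lay between -0.16 and -0.08 on the 4 arrays. Srxn1, which restores over-oxidised peroxiredoxins, had 0.24 and 0.27 in Dll1-3 and -0.26 and -0.17 in Dll1-5.

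In glutathione synthesis, the 2 subunits of glutamate-cysteine ligase came apart. Gclm, the modifier subunit, had signals of 467 and 530.0 in Dll1-3 mutant RNA, against 207 and 211 in the wild-type RNA of those arrays, and 262 and 239 in Dll1-5 mutant RNA, against 220.2 and 200.1 in wild-type RNA. Only the Dll1-3 signals stood clear of wild type by over 2-fold. Gclm ratios were 1.17 and 1.33 in Dll1-3 and 0.25 and 0.26 in Dll1-5 (mean 0.75 ± 0.71, SD, n = 2 lines; limma adjusted p = 0.289). Gclc, the catalytic subunit, had 0.13 and 0.08 in Dll1-3 and -0.41 and -0.46 in Dll1-5, with opposite signs in the lines. Gss was at 0.40 and 0.26 in Dll1-3 and 0.11 and 0.03 in Dll1-5. Gsr, which recycles oxidised glutathione, was higher on every array at 0.54 and 0.36 in Dll1-3 and 0.52 and 0.22 in Dll1-5 (mean 0.41 ± 0.06; limma adjusted p = 0.117), with 2 further probes at 0.28 and 0.40.

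Of the 6 tested glutathione peroxidases only Gpx4, the selenoenzyme that reduces lipid hydroperoxides within membranes, kept one sign on all 4 arrays. Its ratios were -0.65 and -0.61 in Dll1-3 and -0.90 and -0.79 in Dll1-5 (mean -0.74 ± 0.15, SD, n = 2 lines; limma adjusted p = 0.086). Gpx1, the cytosolic selenoenzyme, was at -0.15 and -0.29 in Dll1-3 and -0.10 on the single Dll1-5 array that measured it. Gpx2, Gpx5, Gpx6 and Gpx7 had line means between -0.05 and 0.23, at signals between 61.9 and 226 over all channels. The thioredoxin reductases, selenoenzymes that recharge thioredoxin, showed no 2-fold ratio. Txnrd1, the cytosolic form, was at 0.33 on 1 Dll1-3 array and 0.03 and -0.08 on the Dll1-5 arrays. Txnrd2, the mitochondrial form, was at -0.14 and -0.14 in Dll1-3 and 0.14 and 0.15 in Dll1-5 by its brightest probe. Its 2 other probes had the opposite sign in each line, with line means of 0.41 and 0.24 in Dll1-3 and -0.13 and -0.14 in Dll1-5. Txnrd3 was at 0.32 and -0.12 in Dll1-3 and -0.16 and -0.46 in Dll1-5.

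The lines differed from each other by at least 2-fold, with no overlap of their arrays, for 2 of 47 members (4.26%, beside 4.42% of all genes), and both were higher in Dll1-5, as were 2.76% of all genes. Gstt3, a theta-class transferase, had signals of 96.2 and 113 in Dll1-3 mutant RNA, against 223 and 245 in the wild-type RNA of those arrays, and 1068 and 1032 in Dll1-5 mutant RNA, against 297 and 299 in wild-type RNA. Dll1-3 mutant RNA was lowest and Dll1-5 mutant RNA highest, with wild type between them. The Gstt3 ratios were -1.21 and -1.12 in Dll1-3 and 1.85 and 1.79 in Dll1-5, a difference of -2.98 for Dll1-3 minus Dll1-5, and the probe lies at chr10:75875962-75876021 in the array files' coordinates. Its neighbours on chromosome 10 did not repeat this, with Gstt1 at -0.94 and -0.94 in Dll1-3 and -0.52 and -0.55 in Dll1-5 and Gstt2 between -0.09 and 0.21.

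Prdx5, a peroxiredoxin of mitochondria, peroxisomes and cytosol, had signals of 806 and 795 in Dll1-3 mutant RNA, against 1472 and 1324 in the wild-type RNA of those arrays, and 3106 and 3059 in Dll1-5 mutant RNA, against 1582 and 1421 in wild-type RNA. The order of the RNAs was the same as for Gstt3. Prdx5 ratios were -0.87 and -0.74 in Dll1-3 and 0.97 and 1.11 in Dll1-5, a difference of -1.84 for Dll1-3 minus Dll1-5. Mgst1, the main microsomal transferase, had the same order at a smaller size, with signals of 1998 and 1896 in Dll1-3 mutant RNA, against 2632 and 2617 in the wild-type RNA of those arrays, and 3531 and 3437 in Dll1-5 mutant RNA, against 2654 and 2613 in wild-type RNA. Its ratios were -0.40 and -0.46 in Dll1-3 and 0.41 and 0.40 in Dll1-5, and its second probe had line means of -0.39 in Dll1-3 and 0.35 in Dll1-5.

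In all, 9 of 47 members (19.1%, beside 10% of all genes) had both arrays of one line on one side of 0 and both of the other line on the other side. Between the lines the mutant channels of members differed by a median of 0.24 on the log2 scale and the wild-type channels by 0.05. The largest difference between the wild-type channels was 0.35, for Gstt3, where the mutant channels differed by 3.33. With 1 pooled replicate a line, a difference between lines has no test.

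**Figure D3:**
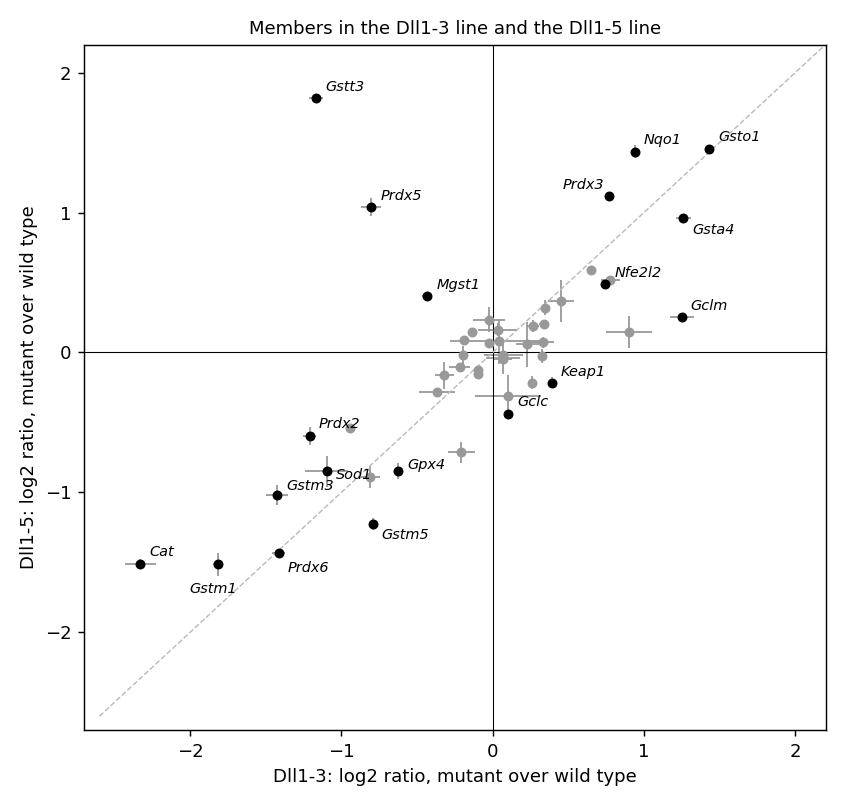
Log2 ratio of mutant over wild type in the Dll1-3 line (horizontal axis) and in the Dll1-5 line (vertical axis), 1 point for each of the same 49 members; bars reach the values of the 2 dye-swapped arrays, the dashed diagonal marks equal ratios, and members past 2-fold and a few others are labelled. Cat, Gstm1 and Prdx6 are low in both lines, Gsto1, Nqo1 and Gsta4 are high in both, and Gstt3, Prdx5 and Mgst1 are low in Dll1-3 and high in Dll1-5.

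**Figure D4:**
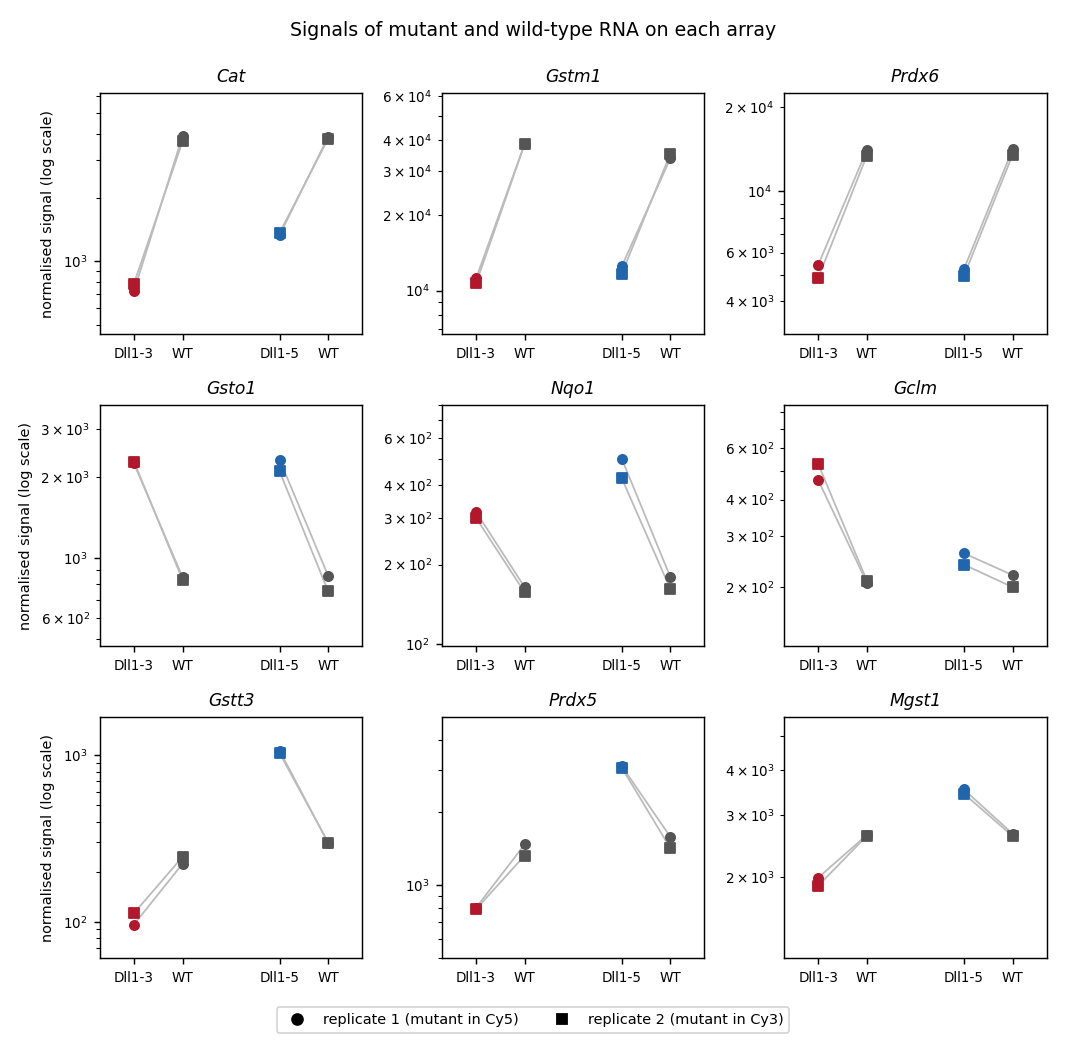
Normalised signal on a log axis for 9 members, with mutant RNA (coloured) left of the wild-type RNA (grey) of the same array and a line joining each pair; circles are replicate 1 and squares replicate 2. The wild-type signals of each gene lie close together across arrays, and the 2 lines lie on opposite sides of wild type for Gstt3, Prdx5 and Mgst1.

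Genes that work with these enzymes were counted in 9 lists, and 0 of the 103 genes tested passed the adjusted threshold of limma, while an unadjusted p under 0.05 was met by 19 higher and 19 lower genes (12% and 15.5% of all genes). Of 10 NRF2 partners and regulators, 2 were higher and 5 lower on all 4 arrays. Of all genes 24.1% were higher and 26% lower by the same count, and several of the lists lie near those shares. The highest was Maff, a small MAF partner protein, at 1.19 and 1.17 in Dll1-3 and 1.496 and 1.36 in Dll1-5. Of 17 other NRF2-responsive detoxification genes tested, 4 were higher and 4 lower, and Akr1b8, an aldo-keto reductase, was at 1.70 and 1.73 in Dll1-3 and 1.89 and 1.89 in Dll1-5 (limma adjusted p = 0.0755). Of 12 genes of NADPH supply, 3 were higher and 4 lower, and Mthfd2, a mitochondrial folate enzyme, was at 2.59 and 2.31 in Dll1-3 and 1.80 and 1.66 in Dll1-5.

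The supply of cysteine for glutathione showed both directions, with 4 of 11 genes higher and 4 lower on all 4 arrays. Slc7a11, the cystine importer, was at -1.20 and -1.27 in Dll1-3 and -2.04 and -1.99 in Dll1-5 (limma adjusted p = 0.0935), lower in Dll1-5. Cth, which makes cysteine from cystathionine, was at 1.80 and 1.97 in Dll1-3 and 1.05 and 1.09 in Dll1-5 (limma adjusted p = 0.105), higher in Dll1-3. Both were at least 2-fold on all 4 arrays, in opposite directions. In the glutathione breakdown and glyoxalase list 6 of 14 genes were higher and 3 lower, and Oplah, the 5-oxoprolinase, was at -1.36 and -1.12 in Dll1-3 and -1.51 and -1.31 in Dll1-5 (limma adjusted p = 0.0755), while its dimmest probe had a mean of -0.05.

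Of 17 selenoprotein and selenocysteine synthesis genes, 4 were higher and 8 lower on all 4 arrays. Selenop, the secreted selenium carrier, had the lowest mean of that list, at -2.97 and -3.14 in Dll1-3 and -0.73 and -0.83 in Dll1-5. The difference was -2.27 for Dll1-3 minus Dll1-5, with no overlap of the arrays. In the thioredoxin and glutaredoxin system 4 of 10 genes were higher and 0 lower, led by Glrx5, a mitochondrial glutaredoxin, at 0.92 and 0.66 in Dll1-3 and 1.19 and 0.96 in Dll1-5. Among the 4 genes of methionine sulfoxide reductases and DJ-1, 1 was higher and 0 were lower, and Msrb2, a mitochondrial reductase, was at 0.59 and 0.76 in Dll1-3 and 0.34 and 0.44 in Dll1-5. Of 10 tested oxidant-producing enzymes 2 were higher and 2 lower, and Ero1a, the oxidase of protein folding, was at 1.94 and 1.81 in Dll1-3 and 1.54 and 1.53 in Dll1-5.

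Set beside the sites printed above, the 10 members with the core in a promoter window had a median ratio over lines of -0.06, and the 32 tested members without it had a median of 0.04. Those with it ranged from Sod1 at -0.97 to Gclm at 0.75. Gclm and Nfe2l2, both higher on every array by their brightest probes, carried a core, as did Gstm5 and Sod1, both lower on every array.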

How the data were processed

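Total RNA of Dll1-3 and Dll1-5 mutant neurospheres and of wild-type neurospheres was hybridised in pairs to 4 arrays, per the labels. Scanned intensity values, deposited by the authors, were output of Agilent Feature Extraction 8.1.1.1 per the submitters' processing notes. The deposited value table and the scanner software's ratio were log10 values, per the file headers and a comparison of the table with them: the table ran against mutant over wild type with a slope of -1.00 on each array, so its direction was wild type over mutant. Medians of its columns were -0.03, 0.01, -0.02 and 0.01, how they were centred is unknown, and the table served as an alternative only.

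Mean signals were background-corrected with normexp (offset 50), normalised by loess within each array (span 0.3) with control and outlier spots at weight 0 (limma 3.58.1, R 4.3.3, the package data.table, version 1.17.8), and turned to log2 mutant over wild type. The swapped arrays of a line were averaged. The test of the 2 line means against 0 used lmFit and eBayes of limma (two-sided, 1 residual degree of freedom, prior 1.64), adjusted by Benjamini-Hochberg over 23106 genes. The spread among wild-type pools is not part of such a ratio. Probes needed either RNA well above background in both arrays of some line, and a gene is its brightest passing probe. Other genes were named through the RefSeq table of assembly GRCm38.p6, while members keep the array's names. Channel signals are those after loess and Aquantile. The fit was tested on simulated data.

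The members, gene lists and marker lists were chosen with earlier results of these data known. Each array value is given for members at least 2-fold on both arrays of a line and for 19 named in advance by role, and from each pathway list for up to 4 genes 2-fold on all 4 arrays, or the gene of largest mean size where none was. Same-numbered arrays share the dye orientation, per the labels, and their deviations from the line means correlated at r = 0.70. Protein sequences were not used here, and 1 tested member is counted but not reported individually.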

Additional observations from a re-analysis of the deposited data

Results flagged for a closer look

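For 9 members both Dll1-3 arrays lay on one side of wild type and both Dll1-5 arrays on the other. With 1 pooled replicate a line, none of these differences was tested. The difference of the log2 ratios, Dll1-3 minus Dll1-5, was -2.98 for Gstt3, -1.84 for Prdx5 and -0.83 for Mgst1, the 3 largest. The mutant channels differed between lines by -3.33 for Gstt3, -1.95 for Prdx5 and -0.84 for Mgst1, beside -0.35, -0.10 and -0.01 for the wild-type channels. Keap1 had a difference of 0.61, Gclc of 0.54 and Srxn1 of 0.47, all 3 higher in Dll1-3. Smaller differences were found for Txnrd2 (-0.28), Gstk1 (-0.28) and Sod3 (-0.092). For Txnrd2 this is the brightest probe, and its 2 other probes ran the other way, with line means of 0.41 and 0.24 in Dll1-3 and -0.13 and -0.14 in Dll1-5. The Sod3 probe was well above background in 3 of 4 mutant channels and 2 of 4 wild-type channels. Prdx5, Mgst1 and Gstk1 fall outside the naming rule and were chosen after their values were seen. Outside the members, the glutamine transporter gene Slc1a5 had a difference of -1.81 and Txnip, whose product binds thioredoxin, of -2.04 by its brightest probe. Both were also chosen after their values were seen, and the second Txnip probe had a mean of -0.07 over both lines.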

How the results depend on the processing

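Of 19 alternatives, 18 gave a ratio for a named member (17 for Gpx1, Prdx3, Sod3 and Txnrd1), though some of these could not change its sign. Of 27 members named by rule, 22 kept their sign in all that gave a ratio. The exceptions all lay near 0: Txnrd2 was at -0.0095 with an offset of 10, Gclc at 0.0039 and Hmox1 at 0.046 with median centring, Txnrd3 at 0.0024 without Dll1-3 replicate 2 (-0.21 to 0.0024 over arrays left out) and Srxn1 at -0.0014 without Dll1-5 replicate 2 (-0.0014 to 0.043). The count of members past the adjusted threshold was 0 and depended on the setting: 3 with an offset of 10 (Gstm1, Gsto1 and Prdx6), 10 without Dll1-3 replicate 1, 8 without Dll1-5 replicate 2, and 0 to 10 over the arrays left out in turn. Those alternatives also called 922, 1678 and 1645 of all genes, and the scanner software's ratios called 336. With the 4 arrays as separate samples, which treats a line's arrays as independent, 24 members passed with no replicate block, 23 with the replicate block (the replicate number is the dye orientation) and 21 with line as a random block, among 7786, 6718 and 6671 genes. Some alternatives could not change a sign. Aquantile left the ratios as they were, and a choice among probes cannot act where a single probe passed. For members measured on all 4 arrays, the fits of separate arrays return the same mean, with or without a block. For Gstt3 and Keap1 the kept sign is that of a mean over lines of opposite sign.

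Members 2-fold in Dll1-3 were 14 with the scanner software's ratios, 14 with the deposited value table, 1 with median centring and 21 at 1.5-fold. In Dll1-5 they were 12 with the scanner ratios, 11 with the deposited table, 1 with median centring and 16 at 1.5-fold. On all 4 arrays they were 7 with the scanner ratios, 7 with the deposited table, 0 with median centring, 2 with the dimmest passing probe and 12 at 1.5-fold. Between lines 8 differed at 1.5-fold. Median centring leaves the intensity-dependent dye difference in the ratios: Gstm1 was then at -0.17 and -2.15 on the swapped Dll1-3 arrays. The members' median was 0.0624 with the scanner ratios, 0.0623 with the deposited table, 0.0470 with median centring and -0.0136 to 0.0185 without single arrays. Leaving out single arrays gave 9 to 10 members 2-fold in Dll1-3, 8 to 11 in Dll1-5, 4 to 5 on all 4 arrays and 2 to 3 between lines. Dim genes are limited by the offset, and 4 arrays limit all precision.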

Other observations

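Among the genes that work with these enzymes, 4 that were picked after their values were seen differed widely between the lines. Chac1, which encodes an enzyme that breaks down glutathione, had log2 ratios of mutant over wild type of 2.89 and 2.72 in Dll1-3 and 0.21 and 0.10 in Dll1-5. Txnip had -1.67 and -1.57 in Dll1-3 and 0.43 and 0.41 in Dll1-5 by its brightest probe, whose mean over lines was -0.60. The second Txnip probe had a mean of -0.07. Slc1a5 had -0.01 and -0.24 in Dll1-3 and 1.72 and 1.65 in Dll1-5. Selenop, given above, had a difference of -2.27 for Dll1-3 minus Dll1-5. In none of the 4 did the arrays of the lines overlap, and these differences were not tested.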
